A study of Mus musculus with 17 samples.

Results

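Motile cilia are the beating, hair-like projections of multiciliated epithelial cells, and the axoneme is their microtubule core. The transcription factor Foxj1 switches on the motile program in mouse, and factors of the Rfx family act on genes of motile and of immotile cilia. Outer and inner dynein arms (Dnah, Dnai and Dnali genes) pull neighbouring microtubules past each other, radial spokes (Rsph genes) and the central pair (Hydin, Spag6) coordinate the stroke, and tektins (Tekt genes) lie along the tubules. Intraflagellar transport proteins (Ift genes) carry cargo along every cilium, including the single immotile primary cilium that adipocyte precursors and many other cells bear. Fat tissue is not known as a site of multiciliated cells.

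The cilia genes described here were chosen by name: the families Dnah (older name Dnahc), Dnai, Dnaic, Dnali, Tekt, Rsph and Ift, with Foxj1, Rfx2, Rfx3, Hydin, Spag6, Tmem212 and Fam183b. This gave 51 genes on 99 probes, of 27573 genes on the array. Of these, 14 are Ift genes of all cilia and 37 are called motile below, although the Rfx factors serve both kinds of cilium. Foxj1, the given marker of multiciliated cells, is one of the 37.

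RNA came from epididymal white fat, a depot attached to the epididymis, of adult male wild-type C57BL/6J mice. For 13 weeks all mice ate a diet in which fat gave 30% of the energy, and its carbohydrate had a high glycemic index (HGI, 9 mice) or a low one (LGI, 8 mice). Each mouse's RNA was labelled with Cy5 and hybridized to its own Agilent array against a Cy3 pool of all samples, so each value is the log2 ratio of one mouse over that pool. Diet differences are given as HGI minus LGI. Nothing beyond its label ties a replicate number to an animal, and the spread behind the p-values may be technical.

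Between 54.2% and 66.7% of gene spots were well above background in Cy5 on an array. Precision is limited by how many arrays there were. HGI 9 and HGI 10 stood apart: over all tested genes their ratios had a correlation of 0.81 between them, while that with any other array was -0.05 to 0.14, and the mean of 8 seminal vesicle genes reached 1.70 there, against -3.92 at most on an LGI array. The adipocyte markers Adipoq and Plin1 were well above background on all 17 arrays.

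Promoter sequences are shown for 3 of the genes that were highest in the LGI 9 array (Fam183b, Tmem212 and Tekt1) and for Tekt2 and Ift57, which hold the letters that RFX factors bind more than once. The sequences are RefSeq's, build GRCm38.p6, each the 250 bases before the start of transcription, 5′ to 3′ on the gene's strand. Capitals mark the RFX motif GTTGCC, or its reverse complement. Fam183b lies on the minus strand at chr11:58801961-58802210, Tekt1 on the minus strand at chr11:72361883-72362132, Tekt2 on the minus strand at chr4:126325689-126325938, Ift57 on the plus strand at chr16:49699044-49699293 and Tmem212 on the minus strand at chr3:27896369-27896618.
Fam183b: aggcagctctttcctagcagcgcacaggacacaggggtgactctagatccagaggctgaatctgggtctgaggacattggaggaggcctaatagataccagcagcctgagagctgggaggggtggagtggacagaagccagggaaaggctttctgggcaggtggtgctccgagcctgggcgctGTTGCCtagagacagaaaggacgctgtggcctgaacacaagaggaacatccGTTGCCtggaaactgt
Tekt1: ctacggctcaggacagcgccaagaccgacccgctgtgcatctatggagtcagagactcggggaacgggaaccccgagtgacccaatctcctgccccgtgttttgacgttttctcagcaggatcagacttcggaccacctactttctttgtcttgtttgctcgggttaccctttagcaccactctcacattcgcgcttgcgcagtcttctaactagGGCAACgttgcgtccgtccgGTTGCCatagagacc
Tekt2: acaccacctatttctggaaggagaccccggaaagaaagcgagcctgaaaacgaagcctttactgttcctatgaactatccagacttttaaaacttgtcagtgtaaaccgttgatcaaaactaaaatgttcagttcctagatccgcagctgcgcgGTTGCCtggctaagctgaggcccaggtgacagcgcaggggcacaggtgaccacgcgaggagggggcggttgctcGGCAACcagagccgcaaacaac
Ift57: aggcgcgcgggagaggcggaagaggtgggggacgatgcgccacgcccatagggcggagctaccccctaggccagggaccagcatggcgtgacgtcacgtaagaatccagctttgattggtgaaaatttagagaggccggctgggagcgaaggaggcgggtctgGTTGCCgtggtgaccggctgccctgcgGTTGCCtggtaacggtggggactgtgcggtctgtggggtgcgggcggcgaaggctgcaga
Tmem212: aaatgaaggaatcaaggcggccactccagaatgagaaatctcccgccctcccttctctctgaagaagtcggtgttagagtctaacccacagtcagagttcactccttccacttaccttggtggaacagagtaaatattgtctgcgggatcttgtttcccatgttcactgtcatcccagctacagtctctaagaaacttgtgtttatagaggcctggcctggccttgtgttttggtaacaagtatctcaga

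Of the 51 genes, 43 matched the promoter table, 32 motile and 11 Ift. Dnahc3, Dnahc7c, Foxj1, Ift122, Ift80, Ift81, Rsph1 and Rsph4a did not. In windows of 300 bases, 250 before and 50 after the start, GTTGCC on either strand was present in 13 of 32 motile promoters (40.6%) and in 5 of 11 Ift promoters (45.5%), against 3423 of 27025 promoters of all genes (12.7%). Fam183b, Tekt1, Tekt2, Ift57 and Dnah10 each held it at 2 places. The forkhead motif TGTTTAC, on either strand, was in 2 of 32 motile promoters (6.25%), those of Dnah17 and Tekt3, and in 0 of 11 Ift promoters, against 3.55% of all promoters. No cilia promoter held both motifs (0.411% of all promoters did). Tmem212 held neither, which says only that these letters are not in that window.

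Most motile genes were dim in this tissue, while every Ift gene was measured in every mouse. A probe of each of the 14 Ift genes was well above background on all 17 arrays. Of the 37 motile genes, 9 were detected on all 17 arrays by at least 1 probe, 15 on 8 to 16 arrays, 11 on 1 to 7 arrays, and 2 on none (Dnah10 and Dnah7a). The median log2 intensity over both dyes was 6.53 for motile genes and 8.35 for Ift genes. As probes differ in brightness, this compares distance from background, not transcript levels. Of the motile genes, 22 passed the filter used for testing, a probe well above background in Cy5 on at least 8 arrays, and all 14 Ift genes passed.

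**Figure D1:**
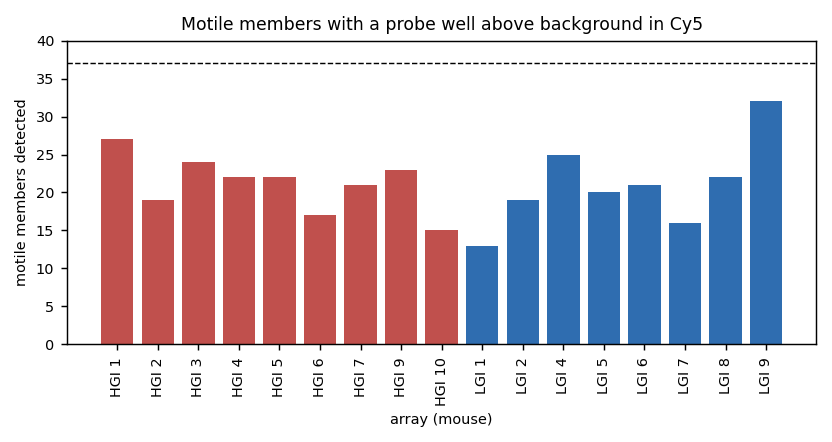
Number of the 37 motile genes with a probe well above background in Cy5 (y axis) on each array (x axis, HGI in red and LGI in blue; the dashed line is all 37). LGI 9 reached 32 and HGI 1 reached 27, while LGI 1 had 13.

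LGI 9 showed the most motile genes, 32 of 37 (86.5%), then HGI 1 with 27 (73.0%) and LGI 4 with 25 (67.6%). The other 14 arrays had 13 to 24. Over all genes the detected share was 69.8% in LGI 9, 66.3% in HGI 1 and 64.0% in LGI 4, within a range of 57.8% to 69.8% over the arrays. The spoke-head gene Rsph4a was detected in LGI 9 alone. The inner-arm light chain Dnali1 was detected in LGI 9, HGI 1 and LGI 4, and the inner-arm heavy chain Dnah12 in these 3 and HGI 7.

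Several motile genes were well above background on more arrays in the pool than in the single mice. Foxj1 was well above background in the Cy3 pool on all 17 arrays and in Cy5 on 7 of them (HGI 1, 5 and 7 and LGI 4, 6, 8 and 9). Dnali1 was detected on 15 arrays in Cy3 and on 3 in Cy5, and the radial spoke gene Rsph1 on 12 in Cy3 and on 3 in Cy5. Over the 37 genes, the brightest probe was detected on more arrays in Cy3 for 19 genes and on more in Cy5 for 8. Over all genes these counts were 5013 and 4689, so the dyes were near balance there. The parts of the dyes' own sensitivity and of the make-up of the pool in this difference were not tested.

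By their median difference from the other arrays, motile genes were highest in LGI 9 and, after it, in HGI 1. These arrays were singled out with their values known, so the following is a description with no test. Set against the median of the other 16 arrays, log2 Foxj1 in LGI 9 was higher by 3.98, a ratio of 15.8, and ranked 2nd of 27573 genes by this difference. Fam183b, a motile cilium protein, was 3.35 above and Tmem212, known from multiciliated cells, 2.94 above. In HGI 1 the same differences were 2.18 for Foxj1, 1.76 for Fam183b and 1.18 for Tmem212, and Foxj1 again ranked 2nd of all genes.

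Foxj1 read 0.49 in HGI 1, and over the 9 HGI arrays its lowest, median and highest log2 ratios were -1.88, -1.78 and 0.49. In LGI 9 it read 2.29, and over the 8 LGI arrays these values were -1.92, -1.38 and 2.29. The values of the 2 diets overlapped. After LGI 9 and HGI 1, the highest arrays were LGI 4 at -0.15, HGI 7 at -0.53 and LGI 6 at -0.83. The 10 arrays on which its spot was not well above background lay between -1.92 and -1.50, and their order has no meaning. Against those 10 arrays, LGI 9 was at least 20.2-fold higher in normalized Cy5, with each array's value set no lower than its dimmest detected probe. All such bounds come from 1 dye orientation, and dye bias that differs between arrays was not tested.

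Fam183b read 0.77 in HGI 1, and its lowest, median and highest HGI values were -1.32, -0.91 and 0.77. In LGI 9 it read 2.36, with LGI values of -1.38, -0.95 and 2.36. Its 6 highest arrays were those of Foxj1, in the same order: LGI 9, HGI 1, LGI 4, HGI 7, LGI 6 and HGI 5. Tmem212 read 0.18 in HGI 1 and 1.94 in LGI 9, with -1.49, -1.06 and 0.18 over HGI and -1.37, -0.94 and 1.94 over LGI, and its 5 highest arrays were the same 5, with LGI 6 before HGI 7. The tubule protein gene Tekt1 had the same 3 highest arrays, at 1.57 in LGI 9, 0.41 in HGI 1 and -0.02 in LGI 4. LGI 9 came first and HGI 1 second for 8 of 37 motile genes (21.6%), 1 of 14 Ift genes and 0.907% of all genes.

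**Figure D2:**
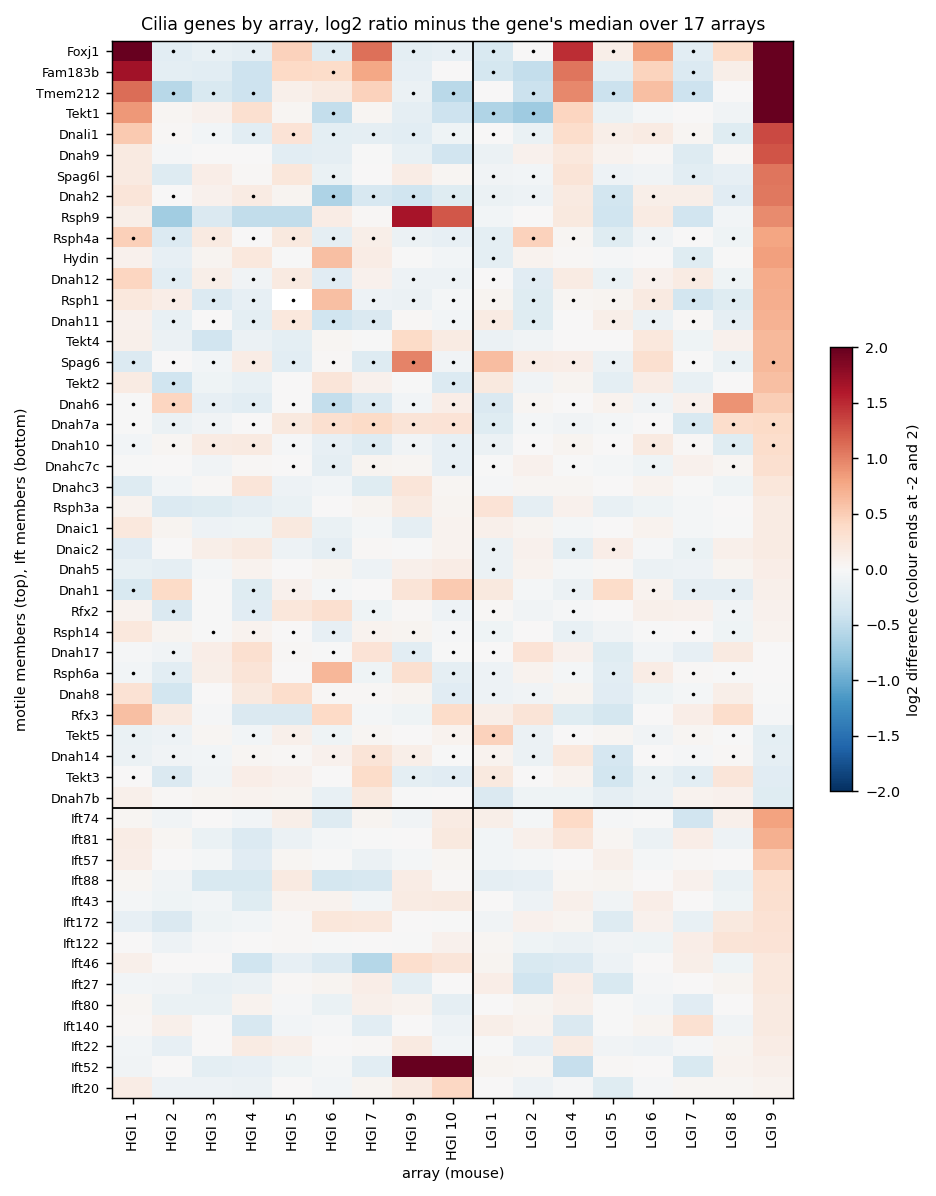
Log2 ratio of each cilia gene minus its median over the 17 arrays (colour, ends at -2 and 2), with motile genes above and Ift genes below the line, in order of LGI 9, and HGI arrays left of LGI arrays. Dots mark spots not well above background. The LGI 9 column is the warmest, HGI 1 is warm at the top, and Ift52 and Rsph9 stand out in HGI 9 and HGI 10.

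In LGI 9, 31 of 37 motile genes read above the median of the other 16 arrays and 6 below it. By the difference from the other 16 arrays, 8 of 37 motile genes were more than 1 higher (percent of all genes past this mark, 1.08%), 0 of 14 Ift genes were, and the median was 0.39 over motile genes, 0.27 over Ift genes and -0.0047 over all genes. Over the 22 tested motile genes alone the median was 0.21, below that of the Ift genes, so which kind stood higher by this median depends on genes near background. In HGI 1, 3 of 37 motile genes were more than 1 higher (all genes, 0.105%), 0 of 14 Ift genes were, and the medians were 0.11 and 0.03. LGI 4 also had 3 motile genes more than 1 higher (all genes, 0.152%). HGI 9 had 2 (all genes, 1.85%), and HGI 7 and HGI 10 had 1 each (all genes, 0.029% and 1.38%). LGI 9 was the highest of the 17 arrays for 17 motile and 9 Ift genes (all genes, 8.39%). HGI 1 was the highest for 3 motile and 0 Ift genes (all genes, 3.55%), and HGI 7 for 4 motile genes (all genes, 5.17%). In HGI 1, 24 of 37 motile genes read above the median of the other arrays, against 26 in LGI 4 and 25 in HGI 5.

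Among the outer-arm heavy chains, Dnah9 was 1.26 higher in LGI 9 and Dnah11 0.73 higher. Probes of a gene did not always read alike. A second Dnah9 probe of similar brightness read 0.17 below the median of the other arrays in LGI 9. Of the Dnah5 probes the brightest was 0.16 higher while another detected on 13 arrays was 1.37 higher. Both Tekt1 probes were higher, by 2.05 and 1.21. Among inner-arm genes, Dnali1 was 1.35, Dnah2 1.10, Dnah12 0.78 and Dnah6 0.51 higher in LGI 9. Dnah6 was detected in LGI 8 and LGI 9 alone, and its log2 ratio was higher in LGI 8 (0.93) than in LGI 9 (0.53). The other Dnah2 probes were at -0.13 to 0.31, and the one at -0.13 was detected on 6 arrays, as was the one at 1.10. The heavy chains Dnah1 and Dnahc3 were 0.10 and 0.23 higher. The dynein intermediate chains Dnaic1 and Dnaic2 were each 0.18 higher.

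The central pair genes Spag6l and Hydin were 1.10 and 0.82 higher in LGI 9. Spag6 and Spag6l are close copies, as are Dnah7a, Dnah7b and the gene the files call Dnahc7c, and probes may not separate them. Among spoke genes, Rsph9 was 0.98, Rsph4a 0.83 and Rsph1 0.77 higher. Some motile genes did not follow. The lowest was Dnah7b, detected on all 17 arrays, at -0.26. Dnah14, another dynein heavy chain, was at -0.19, but it was detected in LGI 4 alone, so this reading lies near background. Rfx2 was 0.09 higher and Rfx3 0.08 lower in LGI 9. Some genes known in mouse for the sperm tail were near or below the median of the other arrays. These were Dnah8 at -0.02, Dnah17 at 0.01, Rsph6a at 0.00, Tekt3 at -0.23 and Tekt5 at -0.19. Their probes were detected on only 3 to 11 arrays, that of Tekt5 not in LGI 9, so these readings lie near background. The tektins Tekt2 and Tekt4 were 0.60 and 0.66 higher in LGI 9. Rfx3 was 0.62 higher in HGI 1.

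All 14 Ift genes read above the median of the other arrays in LGI 9, by 0.08 to 0.80 (median of all genes, -0.0047). In HGI 1, 9 of 14 did (median of all genes, 0.0015). The count was also 9 in HGI 5, LGI 1, LGI 4 and LGI 7, and 10 in HGI 10. Ift74 and Ift81, partners in the transport complex that bind tubulin, were 0.80 and 0.71 higher in LGI 9, and Ift57 was 0.53 higher. These 3 are the Ift genes more than 0.5 higher, against 3.45% of all genes. In HGI 1, 0 of 14 Ift genes and 7 of 37 motile genes were more than 0.5 higher (all genes, 0.747%), and Ift74 was 0.04, Ift81 0.16 and Ift57 0.14 higher. Ift20, the brightest Ift gene, was 0.08 higher in LGI 9.

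**Figure D3:**
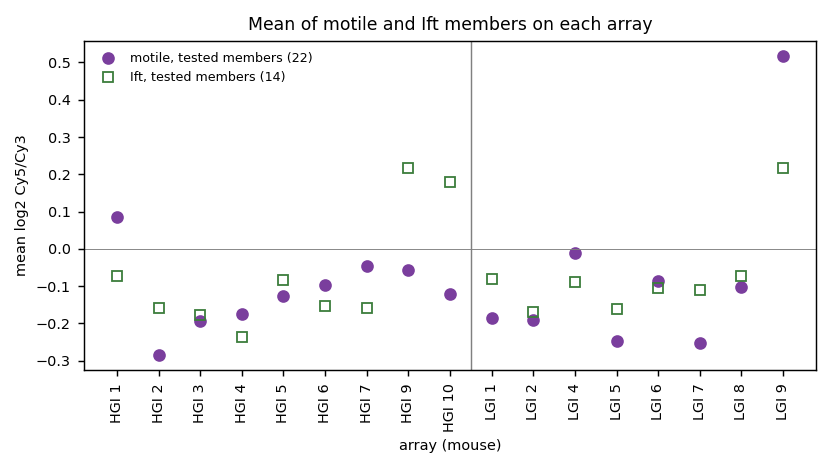
Mean log2 ratio of the 22 tested motile genes (filled circles) and the 14 tested Ift genes (open squares) on each array, HGI left of LGI. The motile mean is 0.52 in LGI 9 and 0.08 in HGI 1, and below 0 on the other 15 arrays. The Ift mean is raised in LGI 9, HGI 9 and HGI 10.

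The mean over the 22 tested motile genes was 0.52 in LGI 9 and 0.08 in HGI 1, and -0.29 to -0.0097 on the other 15 arrays. The Ift mean was 0.22 in LGI 9 and -0.07 in HGI 1. Motile minus Ift was 0.30 in LGI 9, 0.16 in HGI 1 and 0.11 in HGI 7. It was lowest in HGI 9 and HGI 10, at -0.27 and -0.30, where 1 Ift gene, Ift52, read far above its level on the other arrays. The median Ift gene was 0.04 and 0.07 above the other arrays there. The score averaged -0.04 ± 0.16 in HGI and 0.0016 ± 0.14 in LGI (SD, n = 9 and 8), and -0.04 ± 0.08 in LGI without LGI 9, so the diets differed by less than the spread between mice.

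Ift52, a subunit of the same transport complex, read 2.30 in HGI 9 and 1.54 in HGI 10, and -1.48 to -1.26 on the other 7 HGI arrays, against -1.73 to -1.17 on the LGI arrays. The values of HGI 9 and HGI 10 lay apart from all others. Its second probe, detected on all 17 arrays, read -0.32 in HGI 9 and -0.30 in HGI 10, against -0.23 to 0.11 on the other HGI arrays and -0.14 to 0.10 on the LGI arrays, so the probes disagree. Rsph9, with 1 probe, read 1.03 in HGI 9 and 0.62 in HGI 10, against -1.32 to -0.46 in the other HGI arrays and -1.02 to 0.34 in LGI. These are the arrays with seminal vesicle transcripts, whose part in these readings was not tested.

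**Figure D4:**
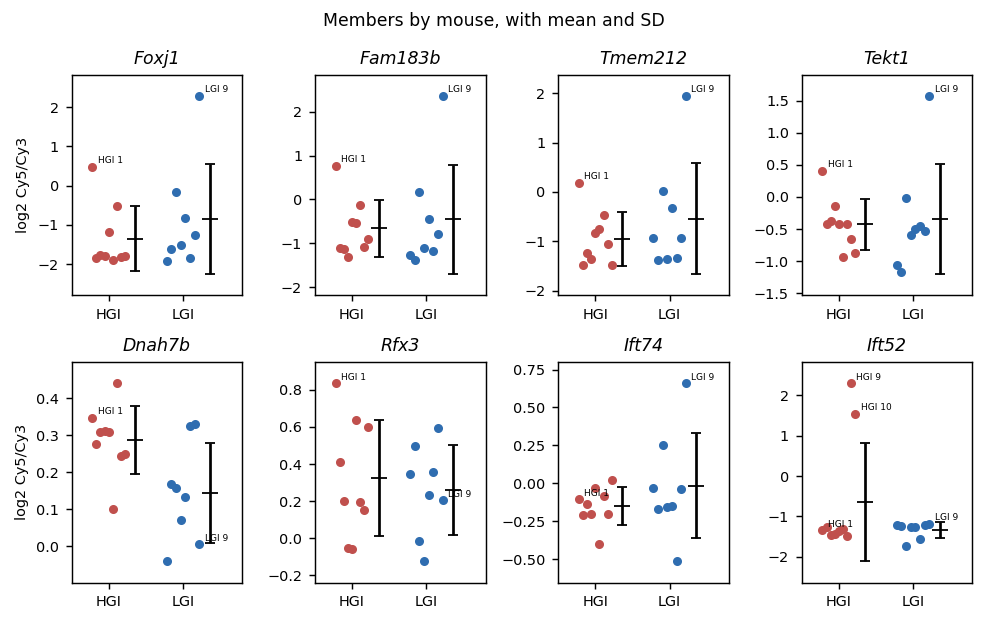
Log2 Cy5/Cy3 of 8 genes by mouse (points, HGI red and left, LGI blue and right), with the mean and SD of each diet (black), each panel on its own scale. LGI 9 and HGI 1 are the highest points for Foxj1, Fam183b, Tmem212 and Tekt1, and HGI 9 and HGI 10 for Ift52.

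No cilia gene passed the test between the diets. In limma's test over 18134 genes with Benjamini-Hochberg adjustment, 0 genes passed 0.05 (percent called 0%), and 719 (3.96%) were higher and 685 (3.78%) lower in HGI at an unadjusted p below 0.05. Of the 36 cilia genes tested, 0 passed and 1 was higher at an unadjusted p below 0.05, Dnah7b. Of the 36, 12 read higher and 24 lower in HGI (all genes, 9535 and 8599), with a median difference of -0.04 (all genes, 0.01). Without LGI 9, 19 read higher and 17 lower (all genes, 9699 and 8435), and the median was 0.00. There 0 of 36 passed even unadjusted (all genes, 3.78% higher and 3.53% lower). Without LGI 9 and HGI 1, 0 of 36 did (4.15% higher and 3.8% lower), and without HGI 9 and HGI 10, 1 of 36 did (5.04% higher and 2.75% lower).

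Dnah7b, an inner-arm heavy chain, had a lowest, median and highest log2 ratio of 0.10, 0.31 and 0.44 in HGI mice, against -0.04, 0.15 and 0.33 in LGI mice. The groups overlapped. The difference was 0.14 ± 0.06 (SE; limma, unadjusted p = 0.0331, adjusted p = 0.616). Without LGI 9 it was 0.12 (limma, unadjusted p = 0.0708), and with Cy5 intensities alone it was -0.05.

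Foxj1 failed the filter and was not tested. It averaged -1.34 ± 0.82 in HGI and -0.85 ± 1.40 in LGI (SD, n = 9 and 8), so the difference was smaller than the spread. With no filter its unadjusted p was 0.299 by limma. Fam183b averaged -0.66 ± 0.66 in HGI and -0.46 ± 1.25 in LGI. Its difference was -0.20 ± 0.41 (SE; limma, adjusted p = 0.925), and 0.20 without LGI 9, the other direction. Tmem212 differed by -0.41 ± 0.36 (SE; limma, adjusted p = 0.808), and by -0.05 without LGI 9.

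Tekt1 differed by -0.08 ± 0.28, and by 0.20 without LGI 9. The largest difference among cilia genes, 0.68 ± 0.45 for Ift52 (SE; limma, adjusted p = 0.743), rested on HGI 9 and HGI 10, since it was -0.05 without them. Rfx2, Rfx3 and Hydin differed by -0.03, 0.06 and 0.04, and the bright Rsph3a by -0.06. The bright Ift genes Ift20, Ift27 and Ift172 differed by 0.08, -0.01 and -0.04, none larger than its spread between mice.

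The arrays were taken in the order in which they were scanned. The first 8 had Cy5 negative controls of 98.4 to 118 intensity units and the later 9 of 72.5 to 86. LGI 9 and HGI 1 were among the first 8, and LGI 4 and HGI 7 among the later 9. Within the first 8 arrays, 1 of 36 cilia genes was higher in HGI at an unadjusted p below 0.05 and 0 were lower (all genes, 1.86% and 2.22%). Within the later 9 arrays 0 of 36 were higher or lower (all genes, 1.47% and 1.69%).

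Other genes of multiciliated cells were high on the same array. Of 55 measured genes on a separate list, 23 were more than 1 above the median of the other 16 arrays in LGI 9 (all genes, 1.08%). In HGI 1, 2 were (all genes, 0.105%). The median of the list was 0.74 in LGI 9 and 0.14 in HGI 1. In LGI 9 52 of the 55 were detected and in HGI 1 40, against a median of 28 on the other arrays. Of all genes, 69.8% were detected in LGI 9 and 66.3% in HGI 1. The highest were Ak7, an adenylate kinase of the axoneme, 2.34 higher in LGI 9 and 1.04 in HGI 1, and Dynlrb2, a dynein light chain, 2.30 in LGI 9 and 1.00 in HGI 1. Other genes of the list, though detected on 16 or 17 arrays, changed little in LGI 9. Among these were Trp73 at -0.17, Tubb4b at 0.08, Tppp3 at 0.11, Dnaaf1 at 0.17 and Deup1 at 0.17. Of 45 core genes of the primary cilium, 1 was more than 1 higher in LGI 9, against 1.08% of all genes. It was Dync2li1 (2.37, and 0.05 in HGI 1), and the median of the 45 was 0.21. Dync2li1 is part of the motor that returns cargo along the cilium, and the motor's heavy chain Dync2h1 was 0.99 higher in LGI 9.

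**Figure D5:**
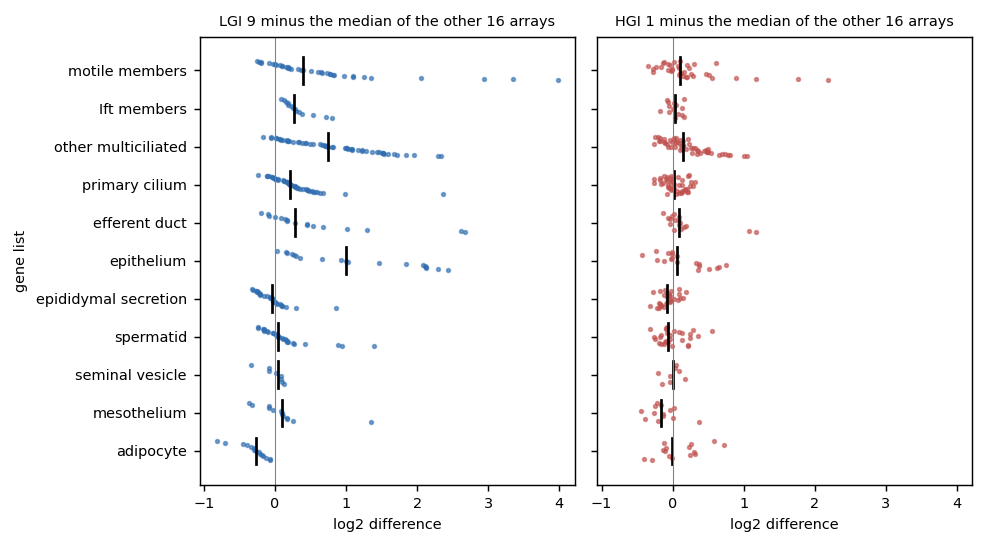
Log2 difference of LGI 9 (left panel) and of HGI 1 (right panel) from the median of the other 16 arrays, for each gene (points) of the cilia genes and 9 other lists, with the median of each list (black bar). Motile, other multiciliated and epithelial genes lie furthest right in LGI 9.

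Markers of other cell types were read beside these. Epithelial genes were led in LGI 9 by Krt18 (2.43) and the cell adhesion gene Cdh1 (2.30). Of 19 epithelial genes, 9 were more than 1 higher in LGI 9 (all genes, 1.08%) and 0 in HGI 1 (all genes, 0.105%). Of 17 genes of efferent duct and oviduct-type epithelium, 4 were, Lrp2 (2.67), Gja1 (2.62), Esr1 (1.29) and Car2 (1.01), and Lrp2 and Gja1 were 1.17 and 1.08 higher in HGI 1. The defining factor Pax8 was 0.17 higher in LGI 9 and was detected on that array alone. Of 30 epididymal secretory genes, 0 were, and Adam7 was highest at 0.85. Of 8 seminal vesicle genes, 0 were. Of 29 spermatid genes 1 was, Prm1 (1.39), and Prm2 was 0.94 higher. Of 13 mesothelial genes 1 was, Rspo1 (1.35). The 15 adipocyte genes had a median of -0.275. The list means by array were -0.24 to 0.05 in HGI and -0.26 to 0.66 in LGI for other multiciliated genes (at most -0.05 in LGI without LGI 9), and -1.10 to 0.64 in HGI and -1.05 to 0.31 in LGI for epithelium, whose highest array was HGI 9. The mean log2 ratio of the epididymal secretory list was -2.139 to -1.715 on HGI arrays and -2.117 to -1.636 on LGI arrays. All 17 arrays thus lay below the pool for this list, and the reason was not tested. The epithelial markers Cdh1 and Epcam were each detected on 7 arrays. The part of these cells in the motile cilia result was not tested, and in bulk RNA fewer cells of a type and less RNA per cell cannot be told apart.

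Outside the cilia genes, the 10 genes most raised in LGI 9 were BC038167 (4.21), Calml3 (3.91), ccdc198 (3.76), Mmp7 (3.61), Plet1 (3.38), Fbp1 (3.04), Cuzd1 (2.94), Acsbg1 (2.81), Calml4 (2.80) and Pipox (2.79). Mmp7 is an epithelial matrix metalloproteinase and Plet1 a surface protein of epithelial progenitors. All 10 were also higher in HGI 1 than the median of the other arrays, by 0.77 to 2.35. For Plet1, Cuzd1 and Calml4, an array other than LGI 9 read above HGI 1.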

How the data were processed

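Spot and background intensities of both dyes were deposited as output of Agilent Feature Extraction (version 9.1.3.1 per the file headers, 9.5.1.1 per the submitters' processing notes). A second file that the authors deposited gives log2 values of 19836 probes. These follow log2 Cy5 intensity (correlation 0.972 to 0.979 by array, column medians 8.33) and served as an alternative, their scale, centring and normalization being not stated. Each Cy5 sample was made from 500 ng of RNA, and the design text counts 19 arrays (10 HGI, 9 LGI) and 2 exclusions by quality control, so 17 were analysed here. The array files name no genome build.

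Background was corrected by normexp (offset 50) and ratios were normalized by loess within each array (limma 3.58.1, R 4.3.3). Of 43790 spots, 2256 controls were left out, as were 4 to 43 flagged spots per array. Saturated spots were kept. Spots of a probe were averaged, giving 41174 probes, named through RefSeq by accession (23374), symbol (6733) or older symbol (2919), and 8148 kept the file's name. A gene is its brightest probe among those well above background in Cy5 on at least 8 arrays, and otherwise its brightest probe. The diets were compared by lmFit and eBayes over 17 arrays, adjusted by Benjamini-Hochberg over 18134 genes, threshold 0.05, and the fit was tested on simulated data. Background correction, normalization, starting signal, filter, probe choice, scan group, array weights, replicate block and left-out arrays were varied. The labels' replicate numbers do not pair the mice: over 7 shared numbers, deviations correlated at -0.38 to 0.26. The named genes are the 7 single genes, per family the 3 brightest tested genes and the 1 with the smallest p, the 8 with the largest value in LGI 9, and the leading genes of each other list and outside the lists. Other genes named for detection or role fall outside this rule or were chosen after their values were seen. The members, the lists and the arrays singled out were chosen with earlier results of these data known.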

Additional observations from a re-analysis of the deposited data

Results flagged for a closer look

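In LGI 9, 14 motile and 2 Ift genes lay apart from the other 7 LGI arrays on the high side, by a gap test that flags about 1 in 20 groups by chance, and that flagged LGI 9 high for 2.35% of all genes. On the log2 ratio scale the highest readings were Fam183b 2.36, Foxj1 2.29, Tmem212 1.94 and Tekt1 1.57. The dynein arm genes read Dnah9 1.34, Dnali1 1.1, Dnah11 0.845, Dnah2 0.715, Dnah12 0.702 and Dnahc7c 0.418. The central pair, spoke and tektin genes read Spag6l 1.12, Hydin 0.786, Tekt4 0.401 and Rsph9 0.335. The transport genes read Ift57 0.749 and Ift81 0.746.

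3 single readings outside LGI 9 also lay apart, Hydin in HGI 6 at 0.566, Spag6 in HGI 9 at 0.438 and the sperm tektin Tekt5 in LGI 1 at 0.516. Spag6 was detected only in LGI 1 and LGI 6, and Tekt5 only in HGI 3, HGI 9 and LGI 5. The Spag6 and Tekt5 readings thus lie near background. HGI 1 lay apart from the other HGI arrays for 0 of 51 cilia genes, and for 0.163% of all genes. For Foxj1, HGI 7 and HGI 5 lay between HGI 1 and the other HGI arrays.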

How the results depend on the processing

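Every tested cilia gene named kept an adjusted p above 0.05 under each setting tried. At that threshold the count of all genes was 0, and 1 with Cy5 alone, 1 with array weights and 0 to 3 with 1 array left out (3 without LGI 7). Some differences below the threshold changed sign, and these are given as HGI minus LGI. With Cy5 intensities alone, Dnahc3 read 0.059, Dnah7b -0.0536, Dnaic2 0.12. With array weights, Dnah5 read -0.012, Tekt1 0.13, Rsph9 -0.17, Spag6l 0.019. In the authors' deposited table, Rfx3 read -0.035, Dnaic1 0.041, Rsph9 -0.011, Ift27 0.047. In the first 8 arrays scanned, Rfx2 read 0.026, Rfx3 -0.041, Hydin -0.13, Dnah5 -0.018, Rsph3a 0.000487. In the later 9 arrays, Dnahc3 read 0.0029, Dnaic2 0.035, Ift27 0.0014, Ift172 0.038. With the mean of all tested probes, Dnah5 read -0.0702. With median centring, Ift27 read 0.028. With processed signals, Fam183b read 0.12, Tekt1 0.15, Spag6l 0.10. Without HGI 9 and 10, Dnah5 read -0.035, Tekt1 0.017, Rsph9 -0.29, Ift27 0.0038, Ift52 -0.048. Without LGI 9 and HGI 1, 9 and 10, Rfx3 read -0.047, Fam183b 0.0713, Dnaic2 0.025, Tekt1 0.17, Rsph9 -0.22, Ift20 -0.0083, Ift27 0.042, Ift172 0.016, Ift52 -0.032, Spag6l 0.0535. With 1 array left out in turn, or LGI 9 and HGI 1 together, the lowest and highest values were Rfx2 -0.0674 to 0.00975, Rfx3 -0.00907 to 0.11, Hydin -0.0232 to 0.15, Fam183b -0.38 to 0.20, Dnahc3 -0.0821 to 0.00772, Dnah5 -0.0175 to 0.0406, Dnaic2 -0.0465 to 0.0309, Tekt1 -0.20 to 0.20, Rsph9 -0.10 to 0.22, Ift27 -0.0659 to 0.0231, Ift172 -0.082 to 0.0146 and Spag6l -0.0868 to 0.10. The median of LGI 9 over motile genes, 0.39, was 0.20 with no background correction, 0.33 with median centring, 0.99 with processed signals, 0.62 in the authors' deposited table, and 0.21 over genes detected on all 17 arrays or over genes that pass the filter (added after seeing the data), where the Ift median was 0.27. That of HGI 1, 0.11, was 0.16 with median centring and 0.36 with processed signals. With the mean of all probes of a gene, also added after seeing the data, Dnah9 in HGI 1 was -0.0931. The cause of these changes was not tested. The replicate numbers do not pair the mice. With the replicate block over 14 arrays of 7 shared numbers, and with no replicate block on the same arrays, Dnah5 was -0.00578, Rsph9 was -0.028, Ift27 was 0.00833, and no named gene was called. The offset of 50 compresses the ratios of dim probes, which limits the fold changes of motile genes near background.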
